A study of Mus musculus with 2 samples.

Results

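The genes described here set and remove cytosine methylation in mouse embryonic stem cells. They are Dnmt3b, Dnmt3c and Dnmt3l, of the de novo DNA methyltransferase family, and Tet2 and Gadd45g, which are tied to demethylation. They were taken by symbol from a table of 886 genes that the authors had selected as different, and all 5 were found, each once. The study set 46C cells that overexpress Flag-tagged Prdm14 (Prdm14 cells) against 46C cells that overexpress the Flag tag alone (Flag cells), both in serum with LIF. 46C is a line of mouse embryonic stem cells whose Sox1 gene carries a green fluorescent protein reporter, and LIF is the cytokine that holds such cells undifferentiated. The promoter of the introduced gene, and whether the cells were a clone or a pool, were not given in the sources used here. The labels list 1 sample per condition, so none of the differences has a replicate check here, and nothing in the labels tells whether the mean that the authors deposited joins separate cultures. In the design text the tagged gene is gadd45g, whereas the title names Prdm14 and the sample labels name Prdm14 and Flag. The sample labels set the groups.

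DNA methylation is a methyl group on cytosine, mostly where a guanine follows (CpG). DNMT3 enzymes place it on unmethylated DNA: DNMT3B is a main one in the embryo around implantation, DNMT3C is a rodent enzyme known for silencing young retrotransposons in male germ cells, and DNMT3L has no catalytic activity and acts as a partner of the enzymes. TET2 oxidises 5-methylcytosine, a step on the way to its removal, and GADD45 proteins are stress-induced adaptors that have been tied to repair-coupled demethylation. PRDM14 is a DNA-binding regulator of naive pluripotency and germ cells, known in mouse embryonic stem cells as a repressor of de novo methyltransferase genes.

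Values are the authors' mean TPM, a transcript abundance scaled by transcript length and by library, so that levels of different genes can be set side by side. Folds are ratios of these means. The read depth is unknown, since TPM carries no read number, and no counting interval or SD could be given. In bulk RNA, fewer cells of a kind and less RNA per cell cannot be told apart. A gene outside the table has no value here.

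The introduced gene followed the sample labels. Prdm14 (ENSMUSG00000042414, chromosome 1, 13113457 to 13127163, minus strand, mm10) was at 399 TPM in Prdm14 cells and at 3.30 TPM in Flag cells, with transcripts of the introduced and the resident gene in 1 value. Gadd45g, the gene in the design text, was lower in Prdm14 cells, as given with its values further on.

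Because Dnmt3b and Dnmt3c are tandem copies, their sequences bear on how far their values are separate. Dnmt3b (ENSMUSG00000027478) lies on chromosome 2 from 153649450 to 153687730 and Dnmt3c (ENSMUSG00000082079) on the same plus strand from 153696652 to 153729907, with 8.92 kb between them. Over 2194 aligned bases of coding sequence, 1968 (89.7%) were identical. The longest identical run in the aligned coding sequences had 287 bases, across exon junctions. Within an exon, the longest identical run had 130 bases, in exon 15 of Dnmt3b (chr2:153674915-153675044) and exon 11 of Dnmt3c (chr2:153717406-153717535). It is shown because a read inside it fits both genes equally, and is given 5′ to 3′ as it stands in the coding strand of both.
Dnmt3b and Dnmt3c, shared run: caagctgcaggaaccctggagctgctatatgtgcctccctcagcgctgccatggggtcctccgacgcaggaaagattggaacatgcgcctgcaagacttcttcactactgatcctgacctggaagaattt

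Elsewhere the copies differ. The 60 aligned bases within an exon that differ most, at 21 positions, lie in exon 3 of Dnmt3b (chr2:153662143-153662202) and exon 2 of Dnmt3c (chr2:153697642-153697701). They are shown because reads from such a stretch tell the genes apart, and capitals mark the bases that differ.
Dnmt3b: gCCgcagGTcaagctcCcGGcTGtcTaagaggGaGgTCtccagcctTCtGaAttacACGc
Dnmt3c: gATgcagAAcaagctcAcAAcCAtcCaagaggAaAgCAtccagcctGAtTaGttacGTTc

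In windows of 60 bases along the Dnmt3c coding sequence, identity to Dnmt3b ran between 65.5% and 100%, and 6 of 37 windows were identical throughout. Of all different 50-base words in the annotated Dnmt3c transcript, 23.6% also occurred in Dnmt3b transcripts, and of the 100-base words 11.3%. In the other direction 9.81% of the 50-base words of Dnmt3b occurred in Dnmt3c. The read length, and how the authors shared out reads that match both copies, were not given in the sources used here, so the value of Dnmt3c is uncertain. Dnmt3l, Tet2 and Gadd45g shared no 100-base word with another gene, and at most 0.632% of their 50-base words.

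**Figure D1:**
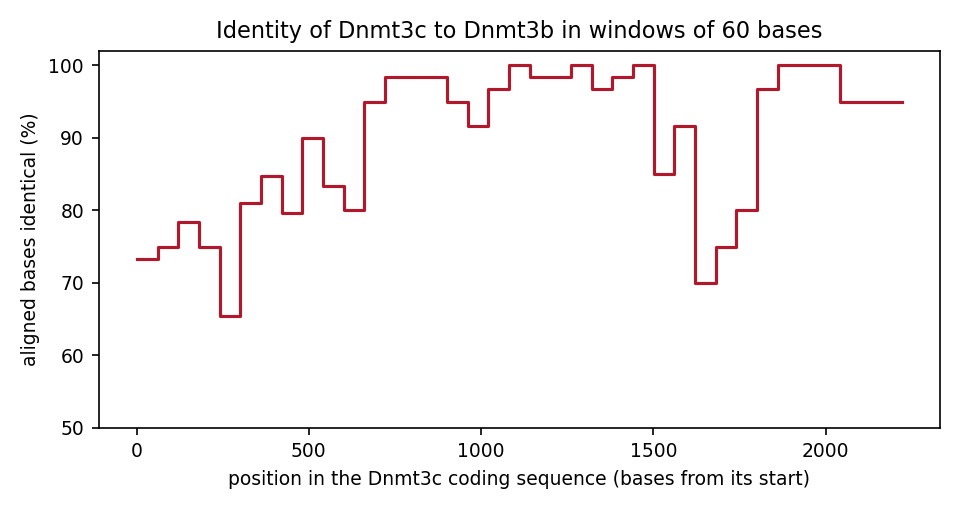
Percentage of aligned bases that were identical between the coding sequences of Dnmt3c and Dnmt3b (vertical axis, from 50%), in windows of 60 bases along Dnmt3c (horizontal axis, in bases from its start). The line is lowest, at 65.5%, in the first part of the sequence, dips again in a later stretch, and reaches 100% in 6 of 37 windows.

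Dnmt3b, the enzyme with the highest level, was 13.1-fold lower in Prdm14 cells. Its mean was 78.7 TPM in Prdm14 cells and 1032 TPM in Flag cells, a log2 fold change of -3.71. In Flag cells only the mitochondrial gene mt-Atp6 had a higher mean among the 886 listed genes, and in Prdm14 cells Dnmt3b was 56th. Of the 28 lower genes with over 100 TPM in Flag cells, only Pou3f1 and Pim2, chosen here for that rank, had a larger fold decrease. Dnmt3b alone made up 6.06% of all TPM by which the lower listed genes differed. That sum also holds the larger decrease of mt-Atp6 (1406 TPM in Prdm14 cells, 6604 TPM in Flag cells). The q-value of Dnmt3b in the authors' deposited table, 3.29e-170, was the third smallest, from a test whose kind and replicate number were not given in the sources used here.

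Dnmt3c, the retrotransposon-silencing copy, was lower by a larger fold, at a low level. Its mean was 1.14 TPM in Prdm14 cells and 22.5 TPM in Flag cells, 19.7-fold lower, with a log2 fold change of -4.30. Its fold rests on a mean close to 1 TPM, and with 1 TPM added to both means the log2 fold change was -3.46. The level of Dnmt3b was 69.1 times that of Dnmt3c in Prdm14 cells and 45.9 times in Flag cells, and the part of shared reads in this parallel was not tested. With the TPM of both copies summed, an alternative chosen after seeing the data, the log2 fold change was -3.72.

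Dnmt3l, the inactive partner, had the smallest fold decrease of the 3 family members. Dnmt3l (ENSMUSG00000000730, chromosome 10, 78041947 to 78063622, plus strand) was at 168 TPM in Prdm14 cells and at 482 TPM in Flag cells, 2.86-fold lower, a log2 fold change of -1.52. That was close to the middle of the lower genes in the table, whose median fold was 3.03. Its level in Flag cells was the fourth highest of the table, and in Prdm14 cells it was 23rd. The annotation places Aire on the opposite strand over part of Dnmt3l, and Dnmt3bos likewise over Dnmt3b. Whether the library kept strand was not given in the sources used here, so reads from bases that both partners cover cannot be told apart. In annotated transcripts, searched on both strands, Dnmt3l shared 0.632% of its 50-base words, with Aire. Dnmt3b shared such words with Dnmt3c only.

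The unequal decreases turned the order of the family round. In Prdm14 cells Dnmt3l had 2.14 times the level of Dnmt3b, while in Flag cells Dnmt3b had 2.14 times the level of Dnmt3l. The summed level of Dnmt3b, Dnmt3c and Dnmt3l was 248 TPM in Prdm14 cells and 1537 TPM in Flag cells, 6.19-fold lower.

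Tet2, the 5-methylcytosine dioxygenase gene, was the single gene of the 5 that was higher. Tet2 (ENSMUSG00000040943, chromosome 3, 133463679 to 133545139, minus strand) was at 39.2 TPM in Prdm14 cells and at 17.7 TPM in Flag cells, 2.22-fold higher, a log2 fold change of 1.15. That fold lay under the median of 2.56 among the higher listed genes. Dnmt3b had 2.01 times the level of Tet2 in Prdm14 cells and 58.4 times its level in Flag cells. An antisense gene, Gm42567, overlaps Tet2 on the opposite strand.

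Gadd45g, the stress-induced adaptor gene, was lower. Gadd45g (ENSMUSG00000021453, chromosome 13, 51846678 to 51848468, plus strand) was at 3.57 TPM in Prdm14 cells and at 21.6 TPM in Flag cells, 6.03-fold lower, a log2 fold change of -2.59. No other annotated gene overlaps it. Dnmt3c, Gadd45g and Tet2 lay close together in Flag cells, between 17.7 and 22.5 TPM. In Prdm14 cells they were spread out: Tet2 had 11.0 times the level of Gadd45g, and Gadd45g 3.14 times that of Dnmt3c.

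**Figure D2:**
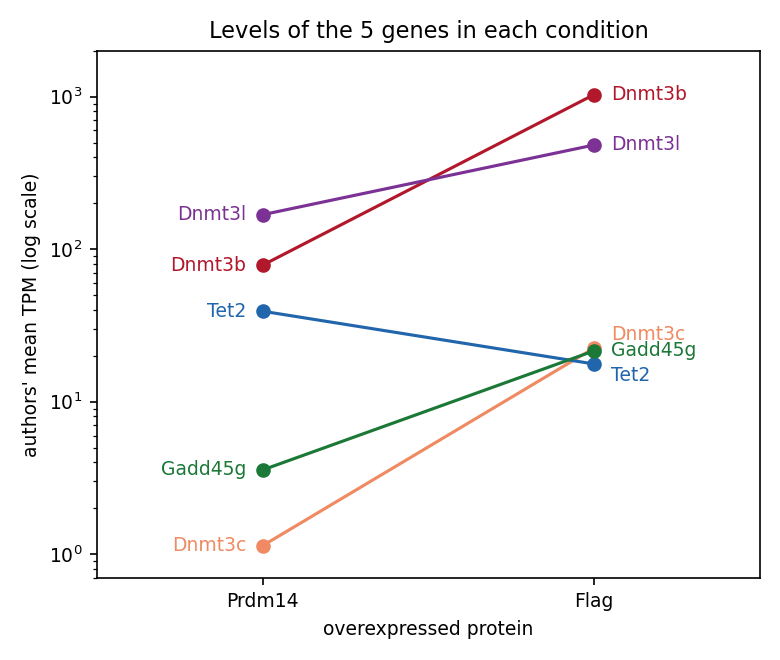
The authors' mean TPM (vertical axis, log scale) of the 5 genes in Prdm14 cells (left) and Flag cells (right), with 1 point per gene and condition and a line joining both means of a gene. Dnmt3b and Dnmt3l change places between the conditions, and Tet2 is the one gene with the higher mean in Prdm14 cells (39.2 TPM, against 17.7 TPM in Flag cells).

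Deposited p- and q-values are related as in a Benjamini-Hochberg adjustment of 20309 genes, which gives each gene a rank by p-value among all of them and not only among those listed. By this rank Dnmt3b was 3rd, Dnmt3c 32nd, Dnmt3l 41st, Gadd45g 343rd and Tet2 396th of 20309. Dnmt3l thus ranked ahead of Gadd45g, although its fold was smaller. As q-values, the authors' deposited table gave 1.53e-58 for Dnmt3c, 1.77e-52 for Dnmt3l, 2.83e-15 for Gadd45g and 1.20e-13 for Tet2.

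**Figure D3:**
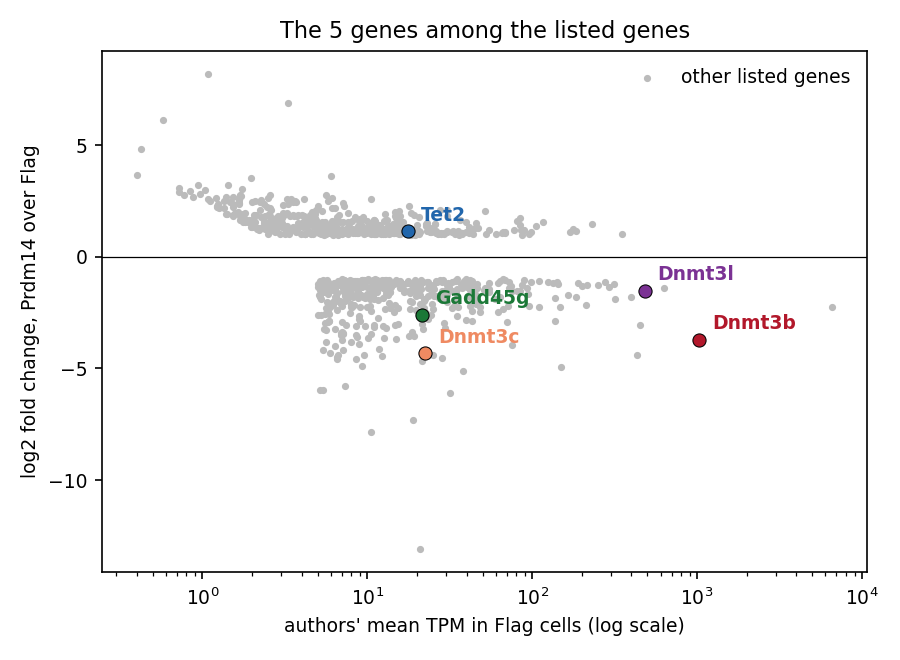
Log2 fold change of Prdm14 over Flag cells (vertical axis) against the authors' mean TPM in Flag cells (horizontal axis, log scale) for the 880 listed genes above the floor of the table in both conditions. Dnmt3b and Dnmt3l lie at the far right, among the genes with the highest means in Flag cells, and the empty band around 0 reflects the authors' selection of genes with a log2 fold change of at least 1.00 in size.

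Of the 5 genes, 4 were lower and 1 higher. Over the 20309 genes, 4.36% were listed, 2.06% as lower and 2.30% as higher, but the rule for the 5 genes required them to be listed, so nothing is read from their share. A wider list of 37 genes that place, keep, read or remove DNA methylation holds them together with Dnmt1, Dnmt3a, Uhrf1, Tet1, Tet3, Tdg, Gadd45a, Gadd45b and other genes. None of the other 32 genes was among those listed, and they have no value here: a gene outside the table may have missed the fold, the TPM or the q threshold.

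Genes around the 5 were looked up in the annotation, beside the 4.36% of all genes that are listed. Within 250 kb of Dnmt3b lie 11 other protein-coding genes, of which Dnmt3c was the single one listed, and around Dnmt3c lie 12, of which Dnmt3b was the single one listed. Around Dnmt3l there were 20 protein-coding neighbours, around Tet2 2 and around Gadd45g 3, and none of them was listed, numbers too small to set against that share.

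Promoters of these genes ranged from CpG-poor to very CpG-rich. RefSeq windows from 250 bases before to 50 after an annotated start (GRCm38.p6) were found for 4 of the 5 genes, 6 windows in all since Dnmt3l has 3 starts, and none for Dnmt3c. The Tet2 window held 57 CpG, more than 99.8% of 32851 such windows. The Dnmt3b window held 30 and that of Gadd45g 21, while the 3 Dnmt3l windows held 6, 4 and 3, against a median of 7 over all windows. The 150 bases upstream of a start are shown for each, since DNA methylation lies mostly at CpG. Capitals mark CpG, the strand is that of the gene, and for Dnmt3l the start with most CpG in its window was taken. The positions are chr2:153649299-153649448 for Dnmt3b, chr10:78042137-78042286 for Dnmt3l, chr3:133544391-133544540 (minus strand) for Tet2 and chr13:51846525-51846674 for Gadd45g. The Tet2 and Dnmt3l stretches lie inside the gene spans given further up, which begin further upstream. Which start these cells use was not tested.
Dnmt3b: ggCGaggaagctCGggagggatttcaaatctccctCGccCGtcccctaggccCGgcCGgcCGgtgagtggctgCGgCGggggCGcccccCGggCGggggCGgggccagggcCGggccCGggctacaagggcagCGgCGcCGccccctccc
Dnmt3l: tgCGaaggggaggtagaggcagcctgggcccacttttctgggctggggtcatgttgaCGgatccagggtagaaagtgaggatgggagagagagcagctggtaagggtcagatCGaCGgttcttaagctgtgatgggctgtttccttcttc
Tet2: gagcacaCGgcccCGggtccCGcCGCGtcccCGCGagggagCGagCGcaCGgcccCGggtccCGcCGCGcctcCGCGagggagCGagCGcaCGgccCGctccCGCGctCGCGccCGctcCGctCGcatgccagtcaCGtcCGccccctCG
Gadd45g: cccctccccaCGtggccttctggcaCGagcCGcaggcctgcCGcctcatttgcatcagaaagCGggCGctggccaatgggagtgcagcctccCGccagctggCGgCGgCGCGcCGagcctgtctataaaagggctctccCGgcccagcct

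The core of the PRDM14 motif, GGTCTCTAA, searched on both strands, was in none of the 6 windows and in 84 (0.256%) of all 32851. That says only that these letters are not in these windows.

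On a chosen list of germ cell genes known to be kept silent by promoter methylation, the genes with a value were higher. Of 18 genes on this list, 5 (27.8%) were listed, all higher, beside 2.30% of all genes listed as higher. The median log2 fold change of these 5 was 1.47. The list was written with earlier results on germ cell genes of this table known, so the count is a description. Germ cell genes outside this list, picked after their values were seen, went both ways. Tdrd12 (17.5 TPM in Prdm14 cells, 46.1 TPM in Flag cells) and Ybx2 (12.2 and 26.1 TPM) were lower. Nanos3 (6.49 TPM in Prdm14 cells, 1.08 TPM in Flag cells) was higher.

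Tex15, needed for silencing of retrotransposons in male germ cells, was at 5.29 TPM in Prdm14 cells and at 1.41 TPM in Flag cells, 3.74-fold higher. Dazl, which encodes an RNA-binding protein of germ cells, was at 14.5 TPM in Prdm14 cells and at 4.11 TPM in Flag cells, 3.52-fold higher. Piwil2, a PIWI protein of the piRNA pathway, was at 15.2 TPM in Prdm14 cells and at 5.47 TPM in Flag cells, 2.77-fold higher, but it overlaps other genes on its strand and its value is uncertain. Stk31 was at 7.61 TPM in Prdm14 cells and at 2.88 TPM in Flag cells, and Hormad1, a gene of the meiotic chromosome axis, at 10.9 TPM in Prdm14 cells and at 5.45 TPM in Flag cells. All 5 stayed at or under 15.2 TPM in Prdm14 cells. The methylation of their promoters was not measured in these data, and 13 other genes of the list have no value here.

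Some markers of cell state were listed as well, and 19 of 30 on the marker lists have no value here. Of 9 embryonic stem cell markers, 5 were listed (Nanog, Zfp42, Esrrb, Klf4 and Tfcp2l1), all higher, beside 2.30% of all genes listed as higher, with a summed level of 1351 TPM in Prdm14 cells and 468 TPM in Flag cells. All 5 were thus detected in both conditions, and the other 4, Pou5f1 and Sox2 among them, have no value here. Of 9 primitive endoderm markers, 4 were listed (Dab2, Lama1, Col4a2 and Cubn), all lower, beside 2.06% of all genes listed as lower. Their summed level was 6.19 TPM in Prdm14 cells and 39.3 TPM in Flag cells. The basement membrane gene Nid1, outside this list and chosen after its values were seen, was higher (70.6 TPM in Prdm14 cells, 20.6 TPM in Flag cells). The fibroblast marker Tagln was at 1.23 TPM in Prdm14 cells and at 5.91 TPM in Flag cells, and the neuronal tubulin gene Tubb3 at 138 TPM in Prdm14 cells and at 66.0 TPM in Flag cells, each the single listed gene of its list of 8 and 4. Genes of the implantation-stage epiblast, chosen after their values were seen, were also lower: Fgf5 was at 1.09 TPM in Prdm14 cells and at 38.1 TPM in Flag cells, Pou3f1 at 4.89 TPM in Prdm14 cells and at 149.8 TPM in Flag cells, and Otx2 at 113 TPM in Prdm14 cells and at 293 TPM in Flag cells. Tubb3 and Tfcp2l1 each overlap another gene on their strand, so their values are uncertain. No listed marker was at the floor of the table. The part of cell state or of other cell types in the differences of the methylation genes was not tested.

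**Figure D4:**
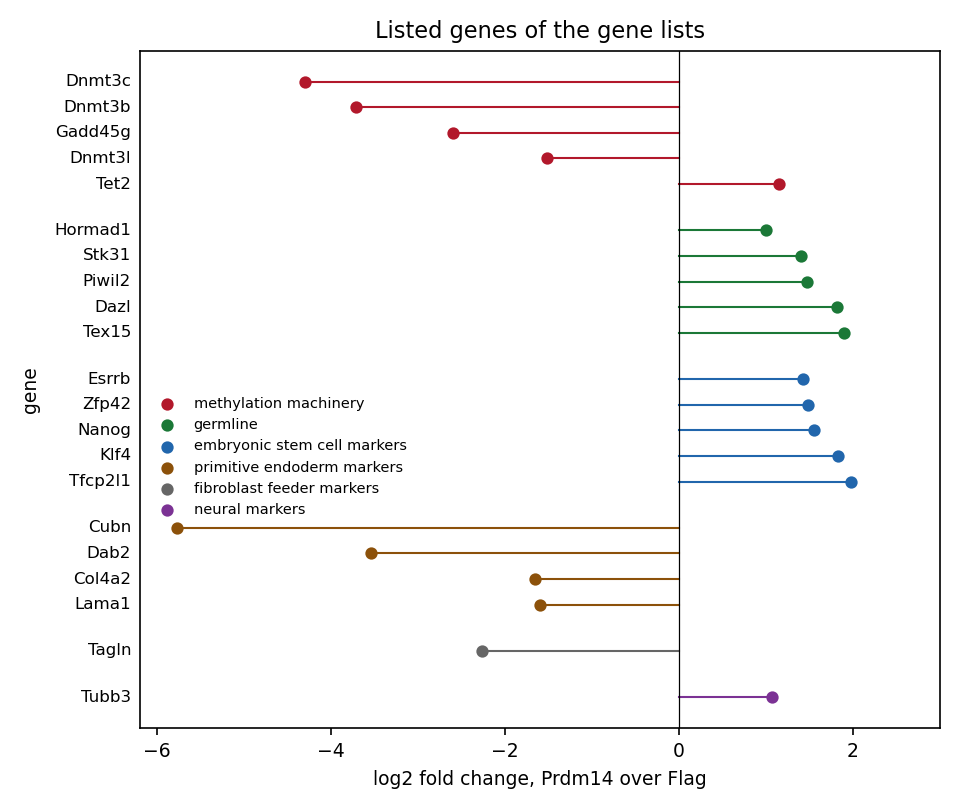
Log2 fold change of Prdm14 over Flag cells (horizontal axis) for each listed gene (1 row per gene) of the 6 gene lists, with 1 colour per list. The germ cell and embryonic stem cell genes shown lie on the higher side, whereas 4 of the 5 methylation genes and all 4 primitive endoderm genes shown lie on the lower side.

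Other listed genes came close to these patterns of level over both conditions, measured as the distance between log2 means over 2 conditions. Predicted models and genes with clone names were left out of this comparison, so a gene left out may lie closer. Closest to Dnmt3c were Vrtn (1.19 TPM in Prdm14 cells, 25.1 TPM in Flag cells) and Pdpn (1.21 TPM in Prdm14 cells, 28.2 TPM in Flag cells), at distances of 0.17 and 0.34. Closest to Gadd45g were Rab25 and Gpx2, at 0.12 and 0.14, and closest to Tet2 were Nfkb1 and Pmaip1, at 0.09 and 0.10. Dnmt3l had Rbpms2 and Ifitm1 at 0.62 and 0.65. Dnmt3b stood further from any listed gene, with Trh (53.5 TPM in Prdm14 cells, 449 TPM in Flag cells) at 1.32 and Ifitm1 at 1.48. With a single mean per condition, such closeness describes a pair of values per gene and no more.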

How the data were processed

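RNA sequencing data of 46C cells were used as the authors deposited them, in a table of 886 selected genes holding a mean TPM for each condition and, per gene, the p-value, q-value and log2 fold change. The submitters' processing notes name Bowtie 0.12.2 and the build mm10; the TPM program and the test were not given in the sources used here. In the deposited table the smallest absolute log2 fold change was 1.00, the smallest larger mean 5.01 TPM and the largest q-value 0.0427. No test was run, since each condition has 1 sample in the labels. The members and lists were chosen with earlier results of these data known.

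Named genes are the 5 members, Prdm14, all listed genes of the gene lists and the 2 nearest genes of each member. Predicted models and genes with clone names were left out of the nearest genes. Genes that overlap a member on the other strand are also named. Chosen after their values were seen were mt-Atp6, Pim2, Pou3f1, Fgf5, Otx2, Tdrd12, Ybx2, Nanos3 and Nid1. All 886 IDs matched a symbol of GENCODE M21 (GRCm38, the same build as mm10). The rank behind each q-value was computed as the number of genes times p over q and came out whole to within 0.01 in 830 genes; it was checked on simulated data. Coding sequences of the longest coding Dnmt3b transcript (Dnmt3b-207) and Dnmt3c-201 were aligned globally with Biopython 1.88 (match 2, mismatch -3, gap opening -10, extension -0.2, free end gaps). Promoters are from RefSeq. Protein sequences were not used here. Alternatives were pseudocounts of 1 and 0.1 TPM, thresholds on fold, q-value and TPM, and leaving out genes that overlap on a strand. Scripts ran under Python 3.11.15 with pandas 2.3.3, numpy 2.4.6 and, for plots, matplotlib 3.10.9.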

Additional observations from a re-analysis of the deposited data

How the results depend on the processing

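No paired analysis was possible because each condition has 1 sample in the labels and the deposited values are means. No direction could change under the alternatives run. An equal pseudocount on both means, a sum of lower genes and thresholds that only drop genes all keep the sign. With a pseudocount of 1 TPM the log2 fold changes were -3.70 for Dnmt3b, -3.46 for Dnmt3c, -1.51 for Dnmt3l, 1.11 for Tet2 and -2.30 for Gadd45g. With 0.1 TPM they were -4.19 for Dnmt3c, 1.14 for Tet2 and -2.56 for Gadd45g, and unchanged to 2 decimals for Dnmt3b and Dnmt3l. With the TPM of Dnmt3b and Dnmt3c summed, an alternative added after seeing the data, the value was -3.72. The fall in size with a larger pseudocount follows from its construction and is largest for Dnmt3c, which has the lowest mean. With a log2 fold change of 2 or more in size required, 3 of the 4 lower genes were kept and 0 were higher, both among the 5 genes and in the wider methylation list, and 0 germ cell genes were kept. With a minimum of 20 TPM in the larger mean 0 germ cell genes were kept. The other thresholds kept 4 lower genes and 1 higher gene, and 4 of 5 germ cell genes. The germ cell counts cover the list of 18 genes only, and their alternatives were added after seeing the data. Depth is unknown, and the spread between cultures could not be estimated.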
